A study of Homo sapiens with 2 samples.

Results

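The 44 genes examined were receptor tyrosine kinases outside the EGFR, insulin receptor and VEGF receptor families, found by their listed symbols in the count files of both libraries, among 23368 gene symbols in all. The libraries were replicates 1 and 2 of a single condition, poly(A) RNA from SUM159, a line of triple-negative breast cancer with wild-type genotype that was grown attached as a monolayer and had been made resistant to doxorubicin, a DNA-damaging anthracycline, through long exposure to rising doses. The culture medium held serum, insulin and hydrocortisone, and the drug was given in pulses with recovery in drug-free medium, per the labels and the methods of the study. Treatment-naïve cells were not analysed here, so the values describe the resistant cells and no comparison with sensitive cells was made. Whether the replicates were grown as separate cultures is not stated, their spread may therefore be technical, and every p-value below compares 2 libraries and not conditions.

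Receptor tyrosine kinases are membrane proteins that bind a ligand outside the cell and, in most subfamilies, respond by pairing and phosphorylating tyrosines on each other, to which adaptor proteins dock and pass the signal to the RAS and MAPK, PI3K and AKT, PLCγ and STAT pathways. Some members, among them PTK7, RYK, EPHB6, EPHA10 and STYK1, have kinase domains regarded as weakly active or inactive and act as coreceptors or scaffolds. In breast cancer cells of mesenchymal character, AXL, EPHA2, MET and the PDGF receptors are among the subfamily members most often studied.

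The resistant cells carried transcripts of a limited set of these receptors at high level. AXL, which binds GAS6 and is commonly linked to the mesenchymal state, was the most abundant by length-corrected level, followed by the ephrin receptor EPHA2, the WNT coreceptor PTK7, EPHB4 and the HGF receptor MET. Of the 44 members, 18 reached a mean of at least 20 counts. A further 20 had at least 1 count but a lower mean, and 6 had none in either library. The study set a minimum mean of 20 reads, with other criteria, for genes called differentially expressed in bulk RNA-seq. Here the minimum applies to the raw mean of the 2 resistant libraries. Over all symbols, 52.8% reached this minimum, and over protein-coding genes matched to the annotation 61.7%. Members above the minimum are called expressed below. In bulk RNA, a low value can come from few cells that express a gene or from little RNA in each cell, and these cannot be told apart.

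The totals were 23044084 and 17985508 counts, so that 1 count equalled 0.0434 and 0.0556 CPM (the count of a gene for every 1000000 counts in its library), and 34 members had counts in each library. Of the markers expected in the line, 4 of 4 mesenchymal or basal genes were expressed (VIM, FN1 and SPARC the highest), as were 3 of 6 epithelial genes (KRT18, KRT8 and KRT14) but 0 of 2 hormone receptors, while the epithelial genes EPCAM and CDH1 stood at 6 and 6 and at 9 and 13 counts. Markers of other cell types were mostly under the minimum, with 2 of 7 leukocyte genes (CD14 and PTPRC), 1 of 5 endothelial genes (PECAM1), 1 of 6 neural or glial genes (SYP) and 0 of 4 muscle genes above it. CD14 had 356 and 137 counts, PTPRC 48 and 31, SYP 49 and 34, and PECAM1 24 and 20, while CD3E, VWF, CLDN5, MYOD1, MYOG and CKM had none, and the part of such signals in the values of the receptors was not tested. The libraries differed beyond counting error (chi-square 944379 with 13743 degrees of freedom over 13744 genes), and their log2 ratio went with exonic length (Spearman rho 0.52 over 11781 genes, as a description). Both bear on the differences between the libraries given further on.

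The TAM subfamily, named for TYRO3, AXL and MERTK, held the largest number of reads, at 490 and 496 CPM in replicates 1 and 2. AXL, at chr19:41725128-41767671 of GRCh37 on the plus strand, had 10491 and 8222 counts, or 455 and 457 CPM (456 ± 1.34, SD, n = 2), and ranked 276 among all genes by CPM. The values nearly coincided in both libraries. TYRO3 had 788 and 691 counts (36.3 ± 2.99 CPM) and MERTK, known for the clearance of dying cells, 7 and 3 counts. AXL alone made up 28.2% of the reads on the 44 genes in replicate 1 (95% Wilson interval 27.8 to 28.7) and 25.2% in replicate 2 (24.7 to 25.6). These intervals treat every read as independent, and they are too narrow where several reads stem from the same molecule. They do not overlap between the libraries and do not describe the spread between them.

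The ephrin receptors, which read ephrins on neighbouring cells and guide contact, repulsion and migration, were the largest subfamily, and 7 of 14 were expressed, with 397 and 411 CPM together. In the A group, EPHA2, at chr1:16450832-16482564 on the minus strand, had 3873 and 3049 counts, or 168 and 170 CPM, EPHA4 had 34.5 and 52.2 CPM, and EPHA7 had 6.16 and 10.7 CPM. EPHA2 was close to equal in both libraries, whereas EPHA4 and EPHA7 were higher in replicate 2. Of the other A receptors, EPHA1 had 1 count in each library, EPHA3 had 1 and 7, EPHA5 had 0 and 1, EPHA8 had 0 and 2 and EPHA10 had 1 and 0, and EPHA6 had none. In the B group, which binds the transmembrane ephrins, EPHB4 had 133 and 128 CPM, EPHB2 46.3 and 44.7 CPM, the kinase-defective EPHB6 6.60 and 4.61 CPM and EPHB3 2.08 and 0.278 CPM. EPHB1 had no count, and 4 of the 5 B receptors were therefore expressed, as against 3 of the 9 A receptors.

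The receptors that take WNT signals through noncanonical routes were expressed without exception, but at very different levels. PTK7, at chr6:43044045-43129457 on the plus strand, had 6232 and 5196 counts, or 270 and 289 CPM (280 ± 13.1). RYK had 76.1 and 76.3 CPM, a difference smaller than for any other expressed member. ROR2 had 5.68 and 6.89 CPM and ROR1 2.82 and 6.28 CPM. The ROR receptors together thus had 10.8 ± 3.30 CPM, beside 356 ± 13.2 CPM for PTK7 and RYK, sums that are not corrected for gene length.

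Of the growth factor receptors, MET had 2054 and 2580 counts, or 89.1 and 143 CPM (116 ± 38.4), while its relative MST1R had 6 counts in each library. Among the FGF receptors, FGFR1 had 1893 and 1647 counts (82.1 and 91.6 CPM), while FGFR2 had 16 and 21 counts, FGFR4 had 8 and 1, and FGFR3 had none. FGFR1 therefore carried nearly all reads of its subfamily (88.0 ± 6.79 CPM in all). PDGFRA had 2556 and 1857 counts and PDGFRB 933 and 941, and both were expressed, unlike the KIT, CSF1R and FLT3 receptors of blood cell and melanocyte growth, of which KIT and FLT3 had no count and CSF1R had 2 and 6.

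ROS1, a receptor of certain epithelia best known for its gene fusions in lung cancer, was expressed at 1037 and 2483 counts, or 45.0 and 138 CPM (91.5 ± 65.8). Its mean CPM, which is not corrected for gene length, was near that of FGFR1, but the libraries lay far apart. ROS1 took 2.79% of the reads on the members in replicate 1 and 7.60% in replicate 2. Of the related receptors, ALK had 0 and 1 counts and LTK had 4 and 3. The neurotrophin receptors NTRK2 and NTRK3 each had 1 count in replicate 1 and 0 in replicate 2, the GDNF family receptor RET had 0 and 1, the endothelial TIE1 had 1 and 0 and TEK had none, MUSK of the nerve-muscle synapse had 2 and 2, and the pseudokinase STYK1 had 3 and 1. Of the collagen receptors, DDR1 had 4 and 2 counts and DDR2 had 10 and 11. Of the 20 members with few reads, 11 had at most 3 counts in both libraries. A count of 0 allows about 3 counts as its upper 95% limit, or 0.130 and 0.167 CPM in replicates 1 and 2. FGFR2, DDR2 and MST1R were above 3 counts in both libraries.

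**Figure D1:**
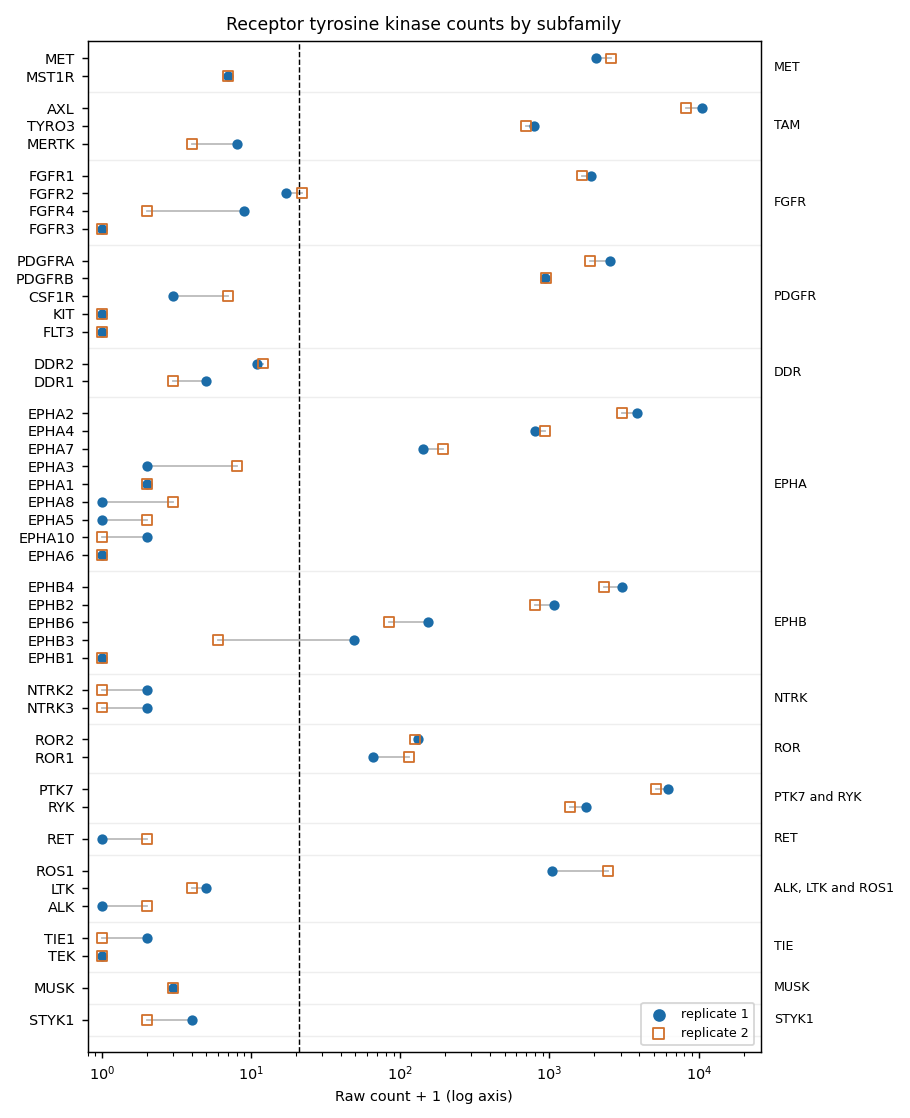
Counts of the 44 members in replicate 1 and replicate 2, grouped by subfamily, on a log axis to which 1 count was added so that values of 0 could be drawn. The 13 members with a mean of at least 500 counts stand apart from a low group of 26 members under a mean of 20, with EPHA7, EPHB3, EPHB6, ROR1 and ROR2 between them.

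To compare levels between genes, counts were divided by the length of merged exons (RPKM, CPM per kilobase of exon). On this scale 15 members reached 1 RPKM, beside 49.0% of the 19313 genes with an exonic length. AXL had 88.7 and 89.0 RPKM, EPHA2 had 40.6 and 40.9, PTK7 had 30.1 and 32.2, EPHB4 had 20.6 and 19.9, and MET had 12.3 and 19.9. AXL, EPHA2 and PTK7 each exceeded the next member in both libraries, and the first 5 members were ranked alike in each. After them came PDGFRA (11.2 ± 0.568 RPKM), ROS1 (10.3 ± 7.40), RYK (9.34 ± 0.0184), PDGFRB (6.50 ± 1.17), EPHA4 (5.74 ± 1.65), FGFR1 (5.05 ± 0.388), EPHB2 (3.64 ± 0.0928) and TYRO3 (3.37 ± 0.277). ROS1 spanned 5.06 to 15.5 RPKM, so that it was separated neither from PDGFRA above it nor from RYK below it. Its range also overlapped those of MET, PDGFRB, EPHA4 and FGFR1, which are not its neighbours in the order. Of the 17 pairs of neighbours, the ranges over the libraries did not overlap in 9 and overlapped in 8. Among the 9, EPHB4 (lowest 19.94) barely cleared MET (highest 19.86), and EPHB2 (lowest 3.572) barely cleared TYRO3 (highest 3.567). These pairs are not clearly separated. Besides ROS1 with PDGFRA and with RYK, the overlapping pairs were PDGFRB with EPHA4, EPHA4 with FGFR1, and each step from ROR2 (1.07 RPKM) through EPHB6 (1.05), ROR1 (0.678) and EPHA7 (0.511) to EPHB3 (0.261).

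The order depended in part on the gene length used. With the longest transcript in place of merged exons, PTK7 rose to 52.9 RPKM and passed EPHA2 at 42.8, and FGFR1, whose merged exons cover 17201 bp against 6216 bp for its longest transcript, rose to 14.0 RPKM. Annotated gene models share exonic sequence with some members, among them a protein-coding model on the same strand over 341 bp of ROS1 and another over 1533 bp of PDGFRA, and LETM2 on the opposite strand over 138 bp of FGFR1. The kit that made the libraries keeps the strand, but the strand setting of the counting was not given in the sources used here, so reads over such stretches could not be assigned with certainty.

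**Figure D2:**
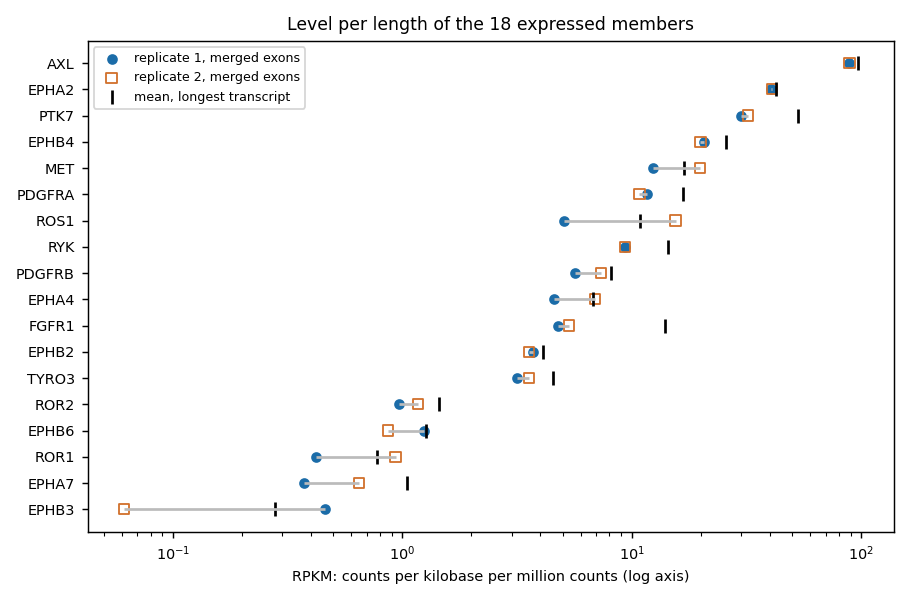
RPKM of the 18 expressed members on a log axis, ordered by their mean, with 1 point for each library, a line joining them and a tick for the mean by longest transcript. AXL stands highest at 88.9 RPKM and EPHB3 lowest at 0.261, and ROS1 and EPHB3 show the widest lines.

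The start sites of expressed and silent members were then compared in sequence. The 250 bases upstream of 3 members are printed from RefSeq (GRCh38.p14), 5′ to 3′ on the strand of the gene and with every CG dinucleotide in capitals: EPHA2 as the most abundant ephrin receptor (chr1:16156070-16156319, minus strand), ROS1 as an expressed member with few CG (chr6:117425943-117426192, minus strand) and KIT as a member without a count (chr4:54657707-54657956, plus strand).
EPHA2: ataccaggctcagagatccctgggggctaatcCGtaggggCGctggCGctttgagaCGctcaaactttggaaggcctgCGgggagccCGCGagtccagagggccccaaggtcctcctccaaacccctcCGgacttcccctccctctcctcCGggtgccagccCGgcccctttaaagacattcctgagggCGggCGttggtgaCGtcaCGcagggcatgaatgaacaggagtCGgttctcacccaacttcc
ROS1: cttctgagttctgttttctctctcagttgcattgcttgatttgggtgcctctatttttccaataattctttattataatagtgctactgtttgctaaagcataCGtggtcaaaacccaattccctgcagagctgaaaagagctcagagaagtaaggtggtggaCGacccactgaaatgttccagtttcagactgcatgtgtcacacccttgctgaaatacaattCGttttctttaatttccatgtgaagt
KIT: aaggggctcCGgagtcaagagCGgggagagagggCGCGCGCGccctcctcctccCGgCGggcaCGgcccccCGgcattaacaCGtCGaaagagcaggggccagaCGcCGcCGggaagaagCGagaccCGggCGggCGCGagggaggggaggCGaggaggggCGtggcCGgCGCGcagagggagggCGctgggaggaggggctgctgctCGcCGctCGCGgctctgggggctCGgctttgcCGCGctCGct

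The KIT stretch held 34 CG, the EPHA2 stretch 15 and the ROS1 stretch 3, and their ratios of observed to expected CG were 0.973, 0.604 and 0.30, with G and C making up 76.4%, 63.2% and 40.0% of the bases. The absence of counts for KIT therefore stood beside a CG-rich start, and the reads of ROS1 beside a CG-poor one. Such windows were found for 41 members, and a ratio of at least 0.6 was held by 14 of 17 expressed members (82.4%, median ratio 0.812) and by 18 of 24 members under the minimum (75.0%, median 0.775). Over all genes with a window, the shares were 87.5% of 8803 expressed genes (median 0.861) and 36.5% of 5257 genes under the minimum (median 0.397). The members under the minimum thus lay nearer to expressed genes than to other genes under the minimum in this feature. The ratio is the highest over the windows of a gene, and the number of windows was not taken into account. These members include DDR1, whose count is not taken as a level of the gene, as described further on. This describes sequence alone, and methylation and chromatin were not measured. Of the motifs searched on both strands, GGGCGG, the core of the box bound by SP1, was present in EPHA2 and KIT and absent from these letters of ROS1, and TATAAA and the AP-1 motif TGANTCA were absent from the 3 windows. Over 35116 windows, GGGCGG was held by 42.6%, TATAAA by 10.7% and TGANTCA by 6.57%.

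A receptor can be engaged by a ligand that the same cells secrete or display, and for that reason the ligand genes were examined beside the receptors. Of these, 31 of 62 were expressed and 17 had no count. Values for ligands are RPKM, mean ± SD of the libraries. For the TAM receptors, GAS6 (4.86 ± 0.660) and PROS1 (3.21 ± 0.566), which bridge the receptors to exposed phosphatidylserine, were both expressed. For the PDGF receptors, PDGFA had 25.2 ± 1.98, PDGFC 9.27 ± 0.128 and PDGFB 3.48 ± 0.891, and PDGFD had no count. Of 18 FGF genes, FGF2 (18.9 ± 2.92) and FGF5 (0.886 ± 0.120) were expressed, and FGF3, FGF4, FGF6, FGF10, FGF16, FGF19, FGF20, FGF21 and FGF23 had no count. The noncanonical ligand WNT5A had 29.1 ± 7.44 and WNT5B 1.44 ± 0.0893, so that RYK, ROR1 and ROR2 each had an expressed ligand. Of 8 ephrins 6 were expressed, and those of highest CPM were EFNA5, EFNB2 and EFNA1. EFNA1 had 9.78 ± 4.50, EFNA5 6.48 ± 1.66 and EFNB2 4.44 ± 1.69. By mean RPKM, EFNA4 (7.84 ± 2.83) exceeded EFNA5, and EFNB1 (4.50 ± 0.582) exceeded EFNB2. EFNA1 and EFNA5 were higher in replicate 1, while EFNB2 was higher in replicate 2.

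Ligands were also present for receptors under the minimum count, among which the count of DDR1 is not taken as a level of the gene, as described further on. CSF1, the ligand of CSF1R, had 37.7 ± 5.03 RPKM, KITLG, the ligand of KIT, had 8.20 ± 0.614, and FLT3LG had 3.0 ± 0.627. AGRN, which acts on MUSK through LRP4, had 53.5 ± 3.01. The fibrillar collagens, which bind DDR1 and DDR2, had 5 of 7 genes expressed, with COL5A1 at 93.3 ± 31.3, COL1A1 at 40.0 ± 10.7 and COL5A2 at 26.5 ± 10.6, and COL2A1 without a count. Of the neurotrophins, BDNF had 2.06 ± 0.515 and NTF3 0.591 ± 0.487. ARTN and NRTN of the GDNF family and the angiopoietin ANGPT1 were also expressed, at 0.967 ± 0.0650, 1.41 ± 0.138 and 0.669 ± 0.102, and GDNF, ANGPT2 and ANGPT4 had no count. MST1, the ligand of MST1R, had 73 and 33 counts (0.492 ± 0.185 RPKM).

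Put together as 124 pairs of a receptor and a ligand, 32 pairs had both genes expressed. The pairs do not hold every ligand named above. DDR1 and DDR2 are paired with COL1A1, COL1A2 and COL3A1 only, and RYK, ROR1 and ROR2 with WNT5A only. Of the 17 expressed receptors with a listed ligand, 15 had an expressed one and 2 did not. The exceptions were MET, whose ligand HGF had no count in either library, and ROS1, whose ligand NELL2 had 1 and 2 counts. Conversely, of the 24 receptors under the minimum with a listed ligand, 22 had an expressed ligand, a tally that includes DDR1, and the others, ALK and LTK, have as ligands FAM150A and FAM150B, both without a count. Ephrins, collagens and some FGFs are listed with several receptors, so the pairs are not independent of one another.

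**Figure D3:**
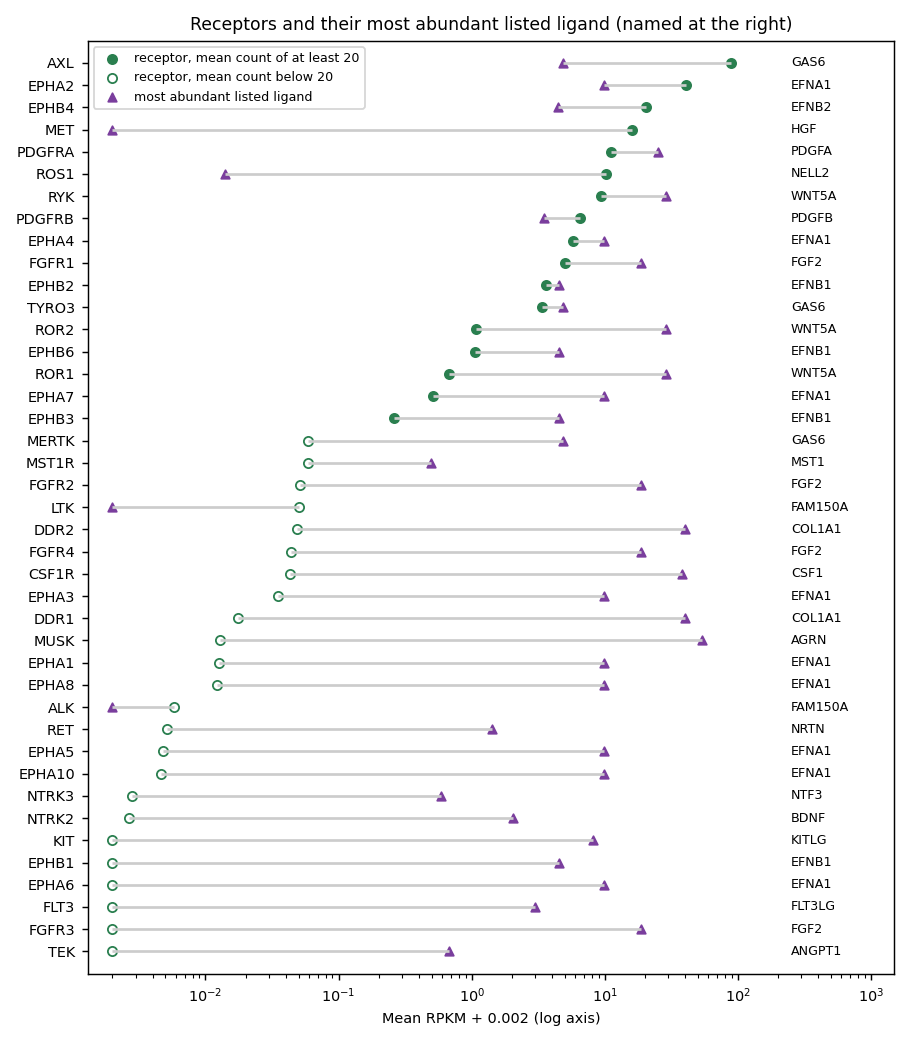
Mean RPKM of 41 receptors with a listed ligand and of the most abundant ligand paired with each. On the log axis 0.002 was added so that 0 could be drawn. COL5A1, COL5A2 and WNT5B are not among the paired ligands. MET and ROS1 are expressed beside ligands at or near 0, while CSF1R, KIT, MUSK and DDR2 stand at the low end beside abundant ligands.

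The libraries were then set against each other for every gene by the exact binomial test that edgeR provides, with Benjamini-Hochberg adjustment across 13744 genes whose counts summed to at least 10. Of the 44 members, 22 could be tested, and 12 differed at an adjusted p of 0.05, or 54.5%, beside 57.7% of all genes tested. In replicate 2, 9 were higher (MET, TYRO3, FGFR1, PDGFRB, EPHA4, EPHA7, ROR1, PTK7 and ROS1), where 30.1% of all genes were, and in replicate 1, 3 were higher (PDGFRA, EPHB3 and EPHB6), where 27.6% of all genes were. The share of members that differed was thus near that of all genes. The median log2 ratio of replicate 2 over replicate 1 was 0.16 over the members and -0.01 over all genes tested.

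The largest difference upward in replicate 2 was that of ROS1, whose 2483 counts against 1037 gave a log2 ratio of 1.62, 3.07-fold (adjusted p = 1.42e-222, exact binomial test of edgeR). Only 242 of 13744 genes, 1.76%, had a larger ratio in either direction. ROR1, with 65 and 113 counts, followed at 1.15 (adjusted p = 6.81e-07 by the same exact test), and EPHA7, with 142 and 192 counts, at 0.79. In replicate 1, EPHB3 had 48 counts against 5, a log2 ratio of -2.78 that 37 genes exceeded (adjusted p = 2.82e-07, exact binomial test), followed by EPHB6, with 152 and 83 counts, at -0.51 and PDGFRA at -0.10. EPHB3 is therefore expressed in replicate 1 and nearly absent in replicate 2, and its mean is that of unlike libraries. AXL at 0.01 and RYK at 0.00 were level (adjusted p = 0.846 and 0.972, exact binomial test of edgeR).

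Exonic length went with the ratio over all genes, and the members are long, with a median of 7389 bp for those tested beside 5430 bp for all genes tested. When the trend with length was taken out, 14 members differed, beside 52.8% of 11781 genes, with 8 higher in replicate 1 (26.1% of all genes) and 6 higher in replicate 2 (26.8%), and the median ratio of the members became 0.04. MET, PDGFRA, PDGFRB, EPHA4, EPHB3, EPHB6, ROR1 and ROS1 differed in the same direction in both comparisons. FGFR1 and PTK7 turned from higher in replicate 2 to higher in replicate 1, TYRO3 and EPHA7 no longer passed, and EPHA2, EPHB2, EPHB4 and RYK passed only after the trend had been removed. The ratio of ROS1 was 1.38 beyond the trend, that of ROR1 1.03, that of MET 0.54 and that of EPHB3 -2.75. What sets the trend was not tested.

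**Figure D4:**
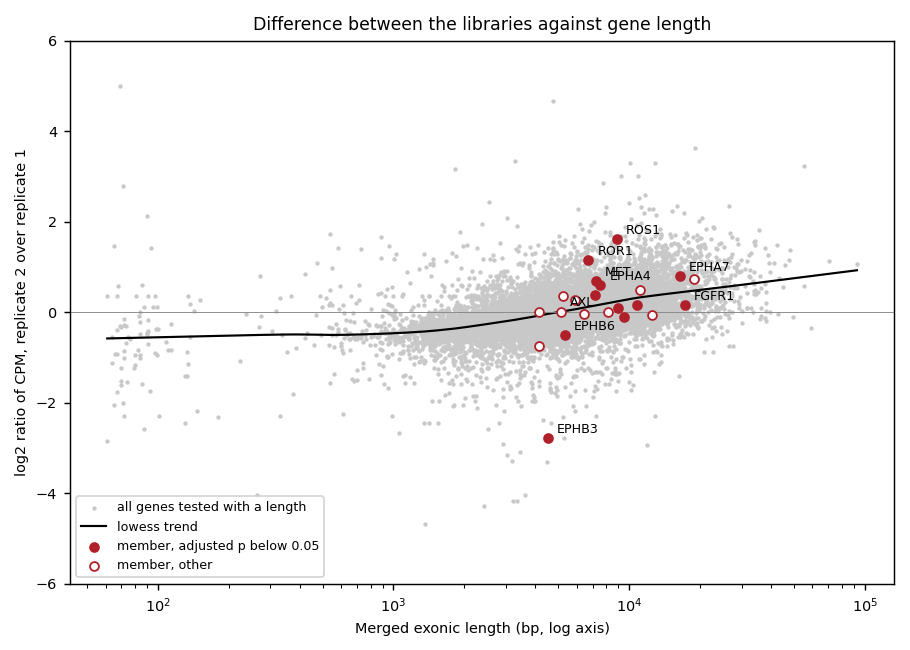
Log2 ratio of replicate 2 over replicate 1 against exonic length in base pairs (log axis) for all genes tested, with the members tested drawn over them and the trend as a line. ROS1 at 1.62 and EPHB3 at -2.78 lie farthest from the trend among the members, followed by ROR1 at 1.15. With the trend taken out, 14 of the 22 members tested differed between the libraries.

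Because ROS1 and DDR1 stood out, the genes beside each member were listed, a step chosen after their values had been seen. Of the 20 nearest protein-coding genes of ROS1 (10 on each side), which lies at chr6:117608516-117747105 of GRCh37 on the minus strand, 12 were expressed. GOPC, its neighbour and a known partner in fusions with ROS1, had 2336 and 2288 counts (log2 ratio 0.33), NUS1 1457 and 1296 counts, DCBLD1 663 and 936 counts (log2 ratio 0.85, adjusted p = 5.67e-31 by the exact binomial test of edgeR), and VGLL2 6 and 4 counts. Higher in replicate 2 at an adjusted p below 0.05 (exact binomial test) were GOPC, DCBLD1, NUS1, TSPYL4, DSE, MCM9 and MAN1A1, all by less than ROS1. Over all genes tested, 30.1% were higher in replicate 2 and 27.6% were lower. Only RWDD1 and ASF1A of the expressed neighbours were lower there by this test (log2 ratios -0.40 and -0.34). TSPYL1, KPNA5 and CEP85L did not pass. The length trend was not taken out of these ratios. Whether the reads of ROS1 come from a normal transcript or a fused one cannot be read from counts per gene and was not tested.

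DDR1 lies at chr6:30844198-30867933 in the major histocompatibility complex. Of its 20 nearest genes only TUBB, with 36 counts in each library, was expressed, whereas the other 43 members had 2 to 18 expressed neighbours with a median of 13. The neighbours at few counts include genes used by nearly every cell, with MRPS18B at 1 and 1 counts, FLOT1 at 3 and 3, GTF2H4 at 1 and 1 and DHX16 without a count. The 4 and 2 counts of DDR1 thus stood among similarly low counts, and they are not taken as a level of the gene, and the reason for the low counts there was not tested. For DDR2, on chromosome 1, 15 of the 20 nearest genes were expressed.

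**Figure D5:**
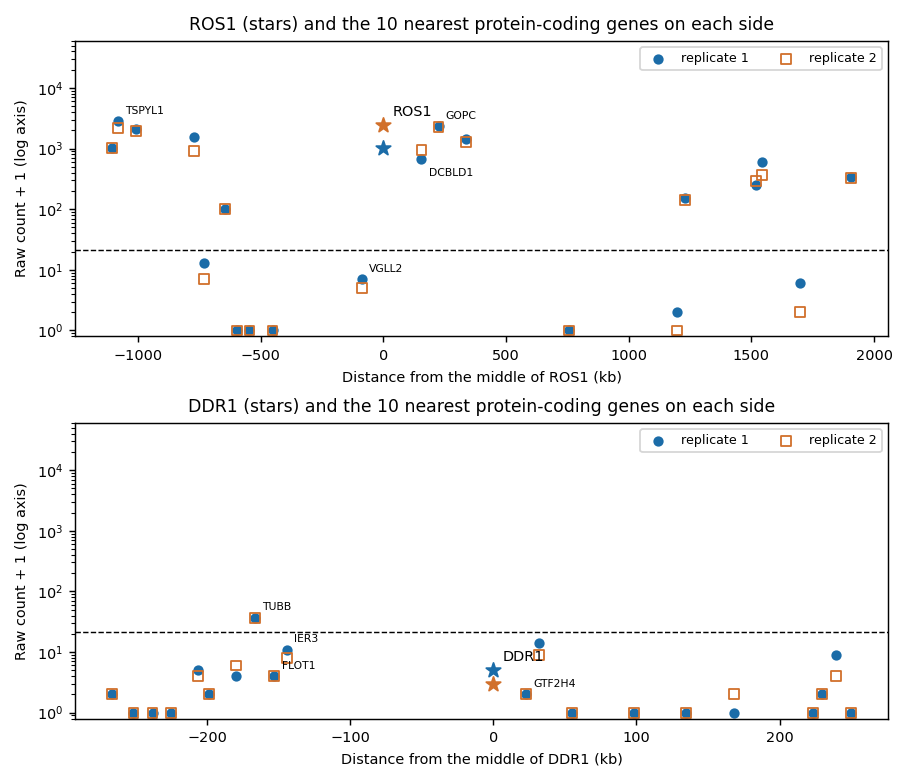
Raw counts plus 1 (log axis) in both libraries for ROS1 and DDR1, drawn as stars, and for the 10 nearest protein-coding genes on each side, against distance in kb from the middle of the receptor gene, with a dashed line at 20 counts. Around ROS1, 12 of 20 neighbours lie above the line, and around DDR1 only TUBB does.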

How the data were processed

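Raw counts of reads per gene symbol were deposited by the authors, 1 file for each of 2 libraries, with whole numbers and no scaling. Per the labels and the methods of the study, poly(A) RNA was made into strand-keeping libraries, the reads were inspected with FastQC, aligned to hg19 by HISAT2 and assigned to genes by HTSeq, and deepTools is also listed. Neither software versions nor the annotation and strand option used in counting are given in the sources used here.

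CPM were computed from the total of all counts, and RPKM with merged exons from GENCODE v44lift37 of GRCh37, which gave 19313 symbols a length (82.6%) and matched all 44 members. The libraries were compared with the exact binomial test of edgeR (binomTest) over genes with at least 10 counts over both, Benjamini-Hochberg adjustment and a threshold of 0.05, and log2 ratios used a prior count of 0.5. The test was run on simulated counts with counting error alone and no length trend, in which some genes were changed on purpose. Such a run checks the calculation and not the calls in these libraries. The trend with exonic length was fitted with lowess (span 0.3). With a single condition, no test between conditions was made. Levels and orders are given with the mean and SD of the libraries.

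The receptors and the lists of ligands, coreceptors, adaptors, regulators and markers were chosen with earlier results of these data known. Expressed members are given with their values, others with their counts. Of each list the 3 genes of highest CPM and those without a count are named, of the members that differ the 3 with the largest log2 ratio in each direction and those that differ also with the trend removed, and genes named beyond this were chosen after their values were seen. Protein sequences and some genes of the lists are not reported here. Upstream windows of RefSeq (GRCh38.p14) were matched by symbol, and for genes with several windows the highest CG ratio was used. Alternatives covered the minimum count, scaling by TMM or by median-of-ratios size factors (DESeq2, size factors only), the filter on low counts, the length and each library left out. The tools were edgeR 4.0.16 and DESeq2 1.42.0 in R 4.3.3, and pandas 2.3.3, scipy 1.17.1, matplotlib 3.10.9 and numpy 2.4.6 in Python 3.11.15.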

Additional observations from a re-analysis of the deposited data

How the results depend on the processing

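The median CPM over the 44 members was 0.226 with both libraries and 0.282 to 0.306 with either library alone. Over the members tested, the median log2 ratio fell from 0.16 to 0.04 with the length trend taken out, by construction of that fit. Expressed members numbered 20 at a minimum of 10 counts, 17 at a minimum of 50 and 18 with either library alone, and expressed pairs ranged from 30 to 38 beside 32. Between 11 and 14 members differed between the libraries, beside 12. Among single members, TYRO3 no longer passed with TMM scaling or without a filter (adjusted p = 0.0575 and 0.0552, edgeR exact binomial test, beside 0.0454), at log2 ratios of 0.16 and 0.17 beside 0.17. Beyond the length trend its ratio turned to -0.15 (adjusted p = 0.0895, same exact test). PDGFRA no longer passed with median-of-ratios size factors (adjusted p = 0.0519 beside 0.0337, same exact test), at -0.10 in both. The equal number with either library alone hides an exchange, since with replicate 2 alone EPHB3 (48 counts in replicate 1, 5 in replicate 2) left and FGFR2 (16 and 21 counts) entered. No paired analysis was possible because the libraries are replicates of a single group. The comparison between libraries needs both, so no library could be left out of it. At these totals, a count of 0 allows for levels up to about 0.130 and 0.167 CPM in replicates 1 and 2.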

Other observations

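Genes that carry the signal of these receptors were described in the same way, as RPKM with the SD of both libraries. Of 22 adaptors and proximal effectors 19 were expressed, and DOK2 had no count. Those of highest CPM, which is not corrected for gene length, were SHC1, PTPN11 and PLCG1. The adaptor SHC1 had 86.8 ± 4.31, the phosphatase PTPN11 18.9 ± 8.37 and the phospholipase PLCG1 14.7 ± 4.09. By RPKM, GRB2 (25.4 ± 1.56) and CRKL (19.5 ± 2.75) exceeded PTPN11 and PLCG1. PTPN11 and PLCG1 were higher in replicate 2, with log2 ratios of 0.94 and 0.58, and SHC1 lay at -0.10. Of 20 negative regulators 19 were expressed, and CBLC had no count. Those of highest CPM were the phosphatase PTPN1, the CBL-binding adaptor SH3KBP1 and LRIG1, which promotes the removal of receptors from the membrane. PTPN1 had 43.9 ± 5.56, LRIG1 17.2 ± 3.34 and SH3KBP1 10.4 ± 0.698. By RPKM, SOCS3 (20.3 ± 5.09) exceeded LRIG1, and SPRED2 (11.8 ± 2.89) and SPRY4 (11.7 ± 3.58) exceeded SH3KBP1.

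Of 14 coreceptors and decoy receptors 9 were expressed, and those of highest CPM were the heparan sulfate carriers SDC4 at 110 ± 27.3, GPC1 at 50.2 ± 3.37 and SDC3 at 23.6 ± 2.85 RPKM, which can hold FGF ligands at the surface. By RPKM, SDC1 (36.1 ± 5.55) exceeded SDC3. KL, the coreceptor for endocrine FGF ligands, and GFRA2 and GFRA4, coreceptors of RET, had no count.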
